A study of Mus musculus with 2 samples.

Results

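Claudins form the strands of the tight junction, and 10 claudin genes, Cldn1, Cldn2, Cldn3, Cldn4, Cldn5, Cldn7, Cldn8, Cldn10, Cldn16 and Cldn19, were followed across the cell types of the mouse glomerulus. They were chosen by symbol, and all 10 were found among the 31058 features counted in both libraries. The cells came from kidney glomeruli of 2 healthy C57Bl/6 mice, 1 titled female and 1 titled male, and each mouse gave 1 library of 10x 3' counts from a suspension of 95% viability. The mice of both libraries had the same genotype, Pax2.rtTA;TetO.Cre;R26.Confetti: doxycycline switches on a recombinase in Pax2-expressing cells, which then keep a fluorescent reporter. Doxycycline was given to both at 19 days of age and both were killed at 30 days. With 1 library per group, no difference between libraries has a replicate check, and no p-value is given.

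Tight junctions seal the gap between neighbouring epithelial or endothelial cells, and the claudins in them decide which ions and how much water pass between the cells. Some claudins form pores, such as Cldn2 for cations and water in the proximal tubule, and others form barriers, such as Cldn5 in brain endothelium. Along the nephron each segment carries its own mixture, from Bowman's capsule, which parietal epithelial cells line, to the thick ascending limb, where Cldn16 and Cldn19 are needed to recover magnesium and calcium, and the collecting duct, where Cldn4 and Cldn8 serve chloride transport.

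Transcripts were counted by unique molecular identifiers (UMIs), of which 67648465 fell on 5233 barcodes (labelled female) and 57841860 on 4974 barcodes (labelled male). After barcodes with over 20% mitochondrial UMIs or under 500 genes were left out, 4909 cells with a median of 10672 UMIs (labelled female) and 4442 cells with a median of 9616 UMIs (labelled male) remained. The libraries shared 10 barcodes, 7 of them among the kept cells. Xist came to 0.621 CPM (labelled female) and 1426 CPM (labelled male), and Y-linked genes to 201 CPM (labelled female) and 0.0346 CPM (labelled male), the reverse of the labels, so each library is named only by its label. CPM are counts per 1000000 UMIs of a library or class. The cells fell into 21 clusters, of which 17 were given 1 of 11 class names from marker genes without any claudin, and no claudin took part in the clustering. The podocyte-like class was the largest, with 3737 cells (labelled female) and 3228 cells (labelled male), while 120 and 92 cells were parietal epithelial-like, 37 and 47 thick ascending limb-like, 20 and 33 distal convoluted tubule-like, and 10 and 22 proximal tubule-like. Endothelium gave 112 and 88 glomerular and 64 and 67 arterial endothelial-like cells.

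Defining genes outside the claudins placed these classes. Podxl, which encodes a surface sialoprotein of podocytes and is also made by endothelium, stood at 4236 CPM (labelled female) and 4514 CPM (labelled male) in podocyte-like cells. Slc12a1, the salt transporter of the thick ascending limb, stood at 6210.2 CPM (labelled female) and 7892 CPM (labelled male) in its class, and Slc12a3, the salt transporter of the distal convoluted tubule, at 4163 CPM (labelled female) and 5738 CPM (labelled male) in its own. Podocyte RNA was also present in other classes: Podxl stood at 2074 CPM (labelled female) and 1759.6 CPM (labelled male) in distal convoluted tubule-like cells and at 1743 CPM (labelled female) and 799 CPM (labelled male) in smooth muscle or renin-like cells. Doublets and free RNA were not separated from true expression, and Podxl is therefore given beside Cldn5 outside endothelium.

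The 10 genes lie on 5 autosomes and the X chromosome of the GRCm38 assembly (mm10, GENCODE M21). Cldn1 (chr16:26356642-26371841, reverse strand) and Cldn16 (chr16:26463135-26482765, forward strand) are neighbours 91.3 kb apart with no annotated gene between them. Cldn4 (chr5:134945119-134946934, reverse strand) and Cldn3 (chr5:134986214-134987472, forward strand) form a similar pair 39.3 kb apart. Cldn5 (chr16:18776847-18778262) and Cldn8 (chr16:88560828-88563183) are also on chromosome 16, Cldn2 is at chrX:139800828-139811386, Cldn7 at chr11:69964779-69967885, Cldn10 at chr14:118787908-118875489 and Cldn19 at chr4:119255414-119262438. The antisense gene Wbscr25 overlaps the last bases of Cldn3, and Gm12927 the 5' part of Cldn19. With a counting strand not given in the sources used here, reads of the 2 genes of a pair cannot be told apart inside these overlaps. Cldn10 has a pair of start regions 67.1 kb apart, which are known to give isoforms with different ion selectivity, and 3' counts do not separate them.

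The promoters of the 6 claudins that led in a class are shown because they let the sequence just before each start be set beside the cells in which the gene was counted. They are the 250 bases before the start in RefSeq's GRCm38.p6 annotation, cut where another annotated start lies inside, 5' to 3' on the gene's strand. Capitals mark matches to 3 motifs searched on both strands: the TATA box core TATAAA, in 12.37% of 32851 promoter windows of the same length, the core of sites of the nephron factor HNF1, GTTAAT, in 6.43%, and the GC box core GGGCGG, in 32.74%. RefSeq promoters were found for 9 of the 10 genes.
Cldn1, chr16:26371842-26372089, reverse strand: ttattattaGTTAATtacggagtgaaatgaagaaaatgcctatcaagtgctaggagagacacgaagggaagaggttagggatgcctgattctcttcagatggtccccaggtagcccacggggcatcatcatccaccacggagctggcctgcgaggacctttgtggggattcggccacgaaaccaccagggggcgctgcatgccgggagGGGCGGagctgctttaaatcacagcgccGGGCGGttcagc
Cldn2, chrX:139800558-139800807, forward strand: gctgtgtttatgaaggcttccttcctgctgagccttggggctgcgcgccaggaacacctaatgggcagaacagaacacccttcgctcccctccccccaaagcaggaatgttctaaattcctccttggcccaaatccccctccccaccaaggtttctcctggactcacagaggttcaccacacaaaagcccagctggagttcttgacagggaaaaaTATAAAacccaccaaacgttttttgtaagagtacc
Cldn5, chr16:18776597-18776846, forward strand: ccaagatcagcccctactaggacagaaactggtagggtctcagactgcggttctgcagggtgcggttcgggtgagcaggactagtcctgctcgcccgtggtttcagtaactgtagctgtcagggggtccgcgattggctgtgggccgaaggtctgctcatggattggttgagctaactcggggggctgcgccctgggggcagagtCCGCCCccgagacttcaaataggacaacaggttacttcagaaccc
Cldn10 first start, chr14:118787621-118787870, forward strand: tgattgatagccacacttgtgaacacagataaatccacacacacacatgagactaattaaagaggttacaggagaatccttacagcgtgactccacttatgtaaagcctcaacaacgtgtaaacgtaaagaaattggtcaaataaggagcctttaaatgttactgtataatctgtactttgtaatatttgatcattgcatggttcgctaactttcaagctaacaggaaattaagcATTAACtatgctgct
Cldn16, chr16:26462885-26463134, forward strand: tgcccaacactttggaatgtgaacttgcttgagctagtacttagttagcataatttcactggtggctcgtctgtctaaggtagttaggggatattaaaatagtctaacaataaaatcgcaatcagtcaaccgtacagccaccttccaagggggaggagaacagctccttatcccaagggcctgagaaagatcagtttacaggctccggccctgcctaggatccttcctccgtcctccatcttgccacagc
Cldn19, chr4:119255191-119255413, forward strand: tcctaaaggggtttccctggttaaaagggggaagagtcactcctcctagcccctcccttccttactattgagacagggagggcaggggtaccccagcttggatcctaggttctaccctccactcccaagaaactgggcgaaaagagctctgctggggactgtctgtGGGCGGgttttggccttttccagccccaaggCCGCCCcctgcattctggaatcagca
The neighbours Cldn1 and Cldn16 differed, with 3 matches in the Cldn1 window and 0 in that of Cldn16, which says only that those letters are not there. The first start of Cldn10 had a base composition of 36.0% G and C and 1 HNF1 core. Its second start, not shown, had 72.4% G and C, 3 GC box cores and no HNF1 core in the searched window. The counts do not tell which Cldn10 start was used in any class. A second start of Cldn19 is also not shown. A match is a string of letters, not a bound site.

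Levels are CPM of the UMIs summed over a class, with exact Poisson 95% intervals that cover counting error only. A class was said to lead for a gene when its level was at least 2-fold above every other named class in both libraries and at 20 CPM or more. Of the 9 claudins that reached 20 CPM in a class in both libraries, 6 led in a class, beside 16.2% of 10040 genes tested the same way. Cldn1 led in parietal epithelial-like cells, Cldn2 in proximal tubule-like cells, Cldn5 in podocyte-like cells, and Cldn10, Cldn16 and Cldn19 in thick ascending limb-like cells. Cldn7 and Cldn8 were highest in thick ascending limb-like and distal convoluted tubule-like cells, Cldn3 led in no class in both libraries, and Cldn4 was too low to be tested. No claudin led in the other 7 classes, where the share of all genes that led was 0.299% in distal convoluted tubule-like, 1.13% in glomerular endothelial-like, 0.737% in arterial endothelial-like, 1.55% in mesangial-like, 0.687% in smooth muscle or renin-like, 3.16% in macrophage or monocyte-like and 2.41% in T or NK-like cells. Immune cells, which do not form tight junctions, gave a rough background: in the 2 immune classes no other member than Cldn5 had more than 1 UMI in a library. These classes were shallow: 3 counts would be 22.8 CPM (labelled female) and 10.6 CPM (labelled male) in T or NK-like cells. In macrophage or monocyte-like cells 3 counts would be 33.1 CPM (labelled female) and 14 CPM (labelled male).

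**Figure D1:**
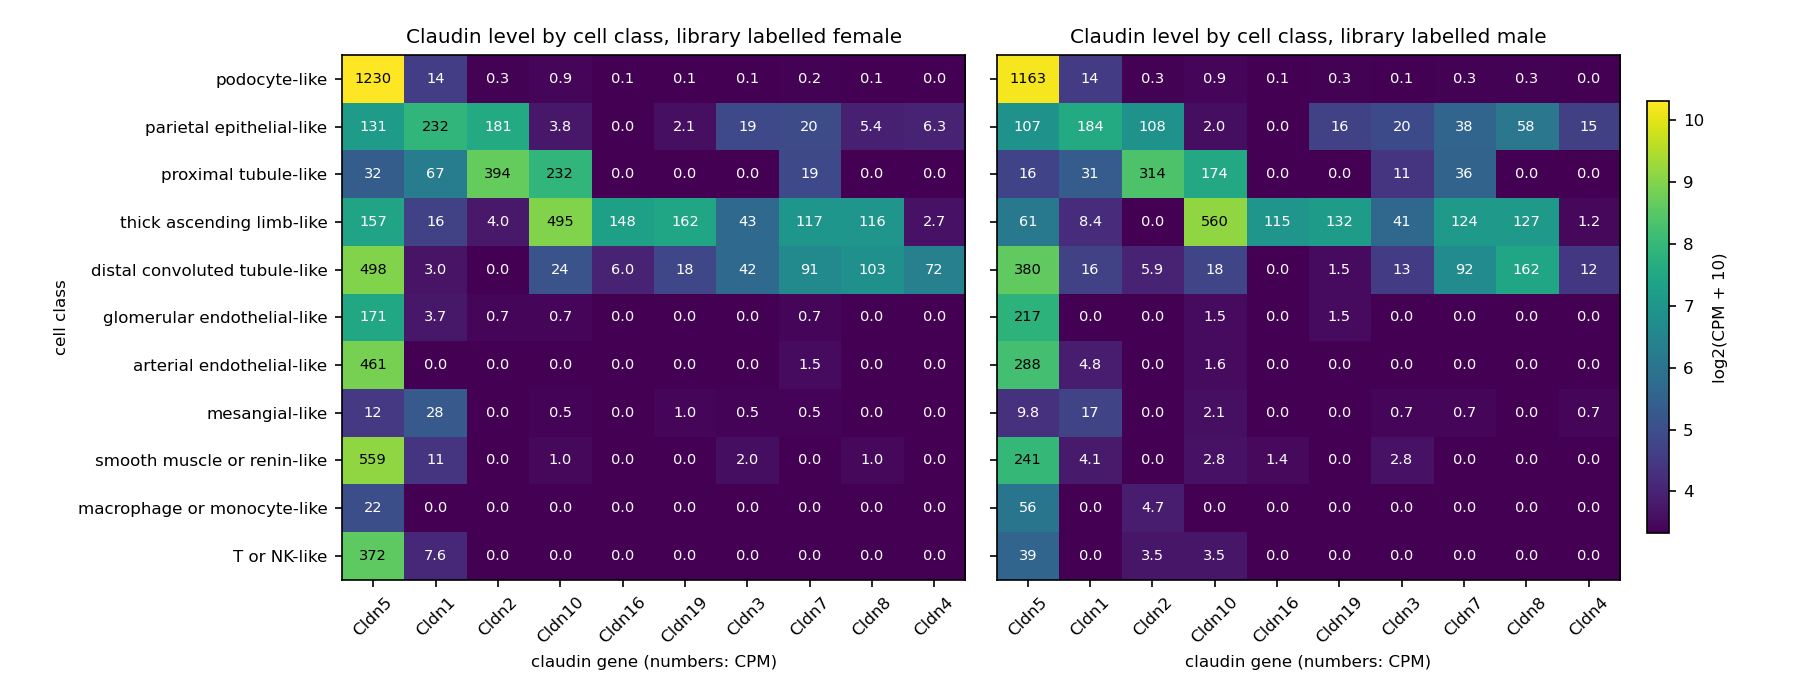
Level of each claudin in each named class in the library labelled female (left) and the library labelled male (right). Colour is log2(CPM + 10) and the printed numbers are CPM; Cldn5 is brightest in podocyte-like cells, at 1230.4 and 1163 CPM, and Cldn10, Cldn16 and Cldn19 in thick ascending limb-like cells.

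Cldn1, a barrier claudin used as a marker of parietal epithelium, stood at 232 CPM (95% interval 214 to 253) in the library labelled female and 184 CPM (163 to 206) in the library labelled male. No other claudin was higher in these cells in either library. Proximal tubule-like cells came next, with 66.7 CPM (labelled female) and 30.9 CPM (labelled male), so that the parietal level was higher by 3.49-fold (labelled female) and 5.94-fold (labelled male). Mesangial-like cells had 28.4 CPM (labelled female) and 16.8 CPM (labelled male) and podocyte-like cells 14.1 CPM (labelled female) and 13.8 CPM (labelled male), while glomerular endothelial-like cells had 3.69 CPM (labelled female) and 0 CPM (labelled male). Across all genes, 1.11% led in the parietal class.

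A Cldn1 UMI was found in 105 of 120 cells (87.5%) labelled female and 66 of 92 cells (71.7%) labelled male of the parietal class. After each cell was thinned to 3000 UMIs the shares were 53.3% (labelled female) and 38% (labelled male). T or NK-like cells held 1 Cldn1 UMI in 9 cells labelled female and none in 32 cells labelled male, at medians of 13528 and 6981 UMIs, against parietal medians of 11500.5 and 13242 UMIs. In podocyte-like cells 570 of 3737 cells (15.3%) labelled female and 424 of 3228 cells (13.1%) labelled male had a UMI, and over the 7 podocyte-like clusters the level ran from 11.4 to 17.9 CPM (labelled female) and from 11.5 to 15.9 CPM (labelled male), with no cluster near the parietal level.

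Parietal epithelial-like cells also carried Cldn2, at 181 CPM (95% interval 164 to 198) in the library labelled female and 108 CPM (92.3 to 126) in the library labelled male. The gene encodes a pore best known from the proximal tubule, and it was found in 61 of 120 cells (50.8%) labelled female and 35 of 92 cells (38%) labelled male. Cldn2 stood at 0.341 CPM (labelled female) and 0.306 CPM (labelled male) in podocyte-like cells, and it had no UMI in mesangial, smooth muscle or renin, or arterial endothelial-like cells of either library. Of the 171 parietal-like cells with Cldn1, 81 also had Cldn2 (47.4%), and of the 41 without Cldn1, 15 had it (36.6%). The libraries went opposite ways. Cldn2 was in 49.5% of cells with Cldn1 against 60% without it (labelled female), and in 43.9% against 23.1% (labelled male). After thinning the pooled shares were 24.2% and 23%, so no link between the genes is drawn from them.

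Sub-clustering without claudins divided the parietal class into 5 groups that carried different claudins. Cells led by Ass1 and Wnt16 (49 cells) had Cldn1 at 274 CPM (labelled female) and 268 CPM (labelled male) and Cldn2 at 131 CPM (labelled female) and 102 CPM (labelled male). Cells led by cell cycle genes and Cyp26b1 (46 cells) were similar, with Cldn1 at 215 CPM (labelled female) and 231 CPM (labelled male) and Cldn2 at 182 CPM (labelled female) and 119.8 CPM (labelled male). Cells led by Mgp and Col6a1 (38 cells) had the highest Cldn1, at 377 CPM (labelled female) and 309 CPM (labelled male). Their Cldn2 was at only 4.6 CPM (labelled female) and 15.1 CPM (labelled male), with no UMI of the keratin Krt8. Col1a1, from the fibroblast marker list, and Cst12, which led an unnamed cluster, were also among their leading genes. Whether these 38 were parietal epithelial cells was not tested.

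The broadest claudin mixture was in cells led by Aqp1, Spink1, Aqp2, Upk3a, Krt18 and Krt8 (44 cells). Krt18 and Krt8 were on the parietal marker list, but Aqp1, Aqp2 and Upk3a were on those of descending thin limb, principal and urothelial cells. Whether all 44 were parietal epithelial cells was not tested. Cldn2 reached 325 CPM (labelled female) and 176 CPM (labelled male) there, beside Cldn1 at 228 CPM (labelled female) and 119 CPM (labelled male). Krt8, which encodes a keratin of simple epithelia, stood at 910.1 CPM (labelled female) and 495 CPM (labelled male). Cldn7, Cldn3 and Cldn4 were also highest in this group: Cldn7 stood at 52.9 CPM (labelled female) and 109 CPM (labelled male), Cldn3 at 35.3 CPM (labelled female) and 52.1 CPM (labelled male) and Cldn4 at 22.1 CPM (labelled female) and 49.9 CPM (labelled male). These genes are otherwise known from distal nephron and collecting duct. The last group, led by Cdkn1c, Podxl and other podocyte genes (35 cells), had the podocyte claudin Cldn5 at 569 CPM (labelled female) and 492 CPM (labelled male).

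**Figure D2:**
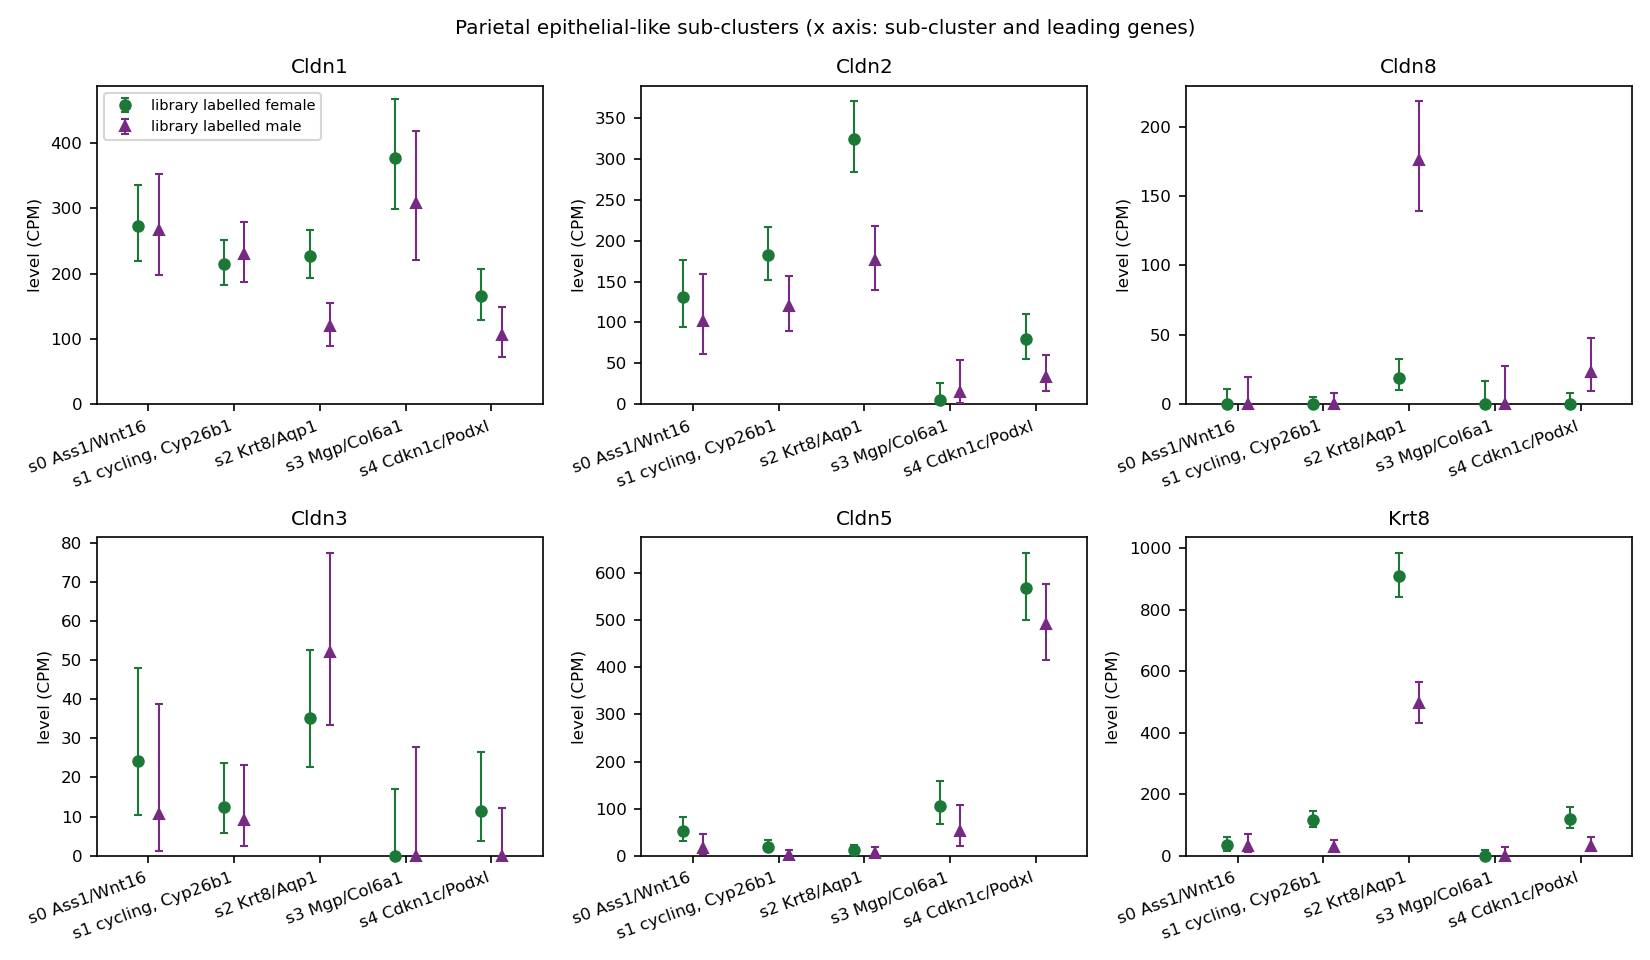
Levels in CPM (vertical axes, with exact Poisson 95% intervals) of 5 claudins and the keratin Krt8 in the 5 parietal epithelial-like sub-clusters (horizontal axes), for the library labelled female (circles) and the library labelled male (triangles). Cldn1 is present in all 5, Cldn2 is near 0 in the Mgp- and Col6a1-led cells, and Cldn8 is high in 1 sub-cluster of the library labelled male.

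Cldn8 in the parietal class was found in 13 of 212 cells. Of its UMIs, 4 of 13 labelled female and 50 of 88 labelled male lay in 4 cells with 2 or more principal cell markers. A pair of principal cell markers or more was found in 1 parietal-like cell labelled female and in 3 labelled male, and these had Cldn8 at 199 CPM (labelled female) and 703 CPM (labelled male), Cldn7 at 249 CPM (labelled female) and 309 CPM (labelled male) and Cldn4 at 299 CPM (labelled female) and 183 CPM (labelled male), with no UMI of Cldn1 or Cldn2. Principal cells of the collecting duct are known to carry Cldn4, Cldn7 and Cldn8. In the cell labelled female, Cldn8 was 4 UMIs (interval 54.3 to 510 CPM). Its 0 UMIs of Cldn1 and of Cldn2 had upper limits of 184 CPM. Aqp2 had no UMI there and was found in 2 of the 3 cells labelled male. Those 3 cells also had Akap12, a leading gene of the parietal class, at 661 CPM and Pax8 at 225 CPM. Whether these were principal cells was not tested. The other 119 cells labelled female and 89 cells labelled male had Cldn8 at 3.79 CPM (labelled female) and 26.1 CPM (labelled male) and Cldn4 at 3.79 CPM (labelled female) and 6.88 CPM (labelled male), while Cldn1 stood at 234 CPM (labelled female) and 193 CPM (labelled male). All 13 parietal-like cells with Cldn8 also had Cldn7, and 8 of them had Cldn4, against 18 and 1 of the 199 cells without Cldn8.

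Podocytes carried 1 claudin at a high level. Cldn5, the barrier claudin of brain endothelium that is also known from podocytes, stood at 1230.4 CPM (95% interval 1220.4 to 1241) in the library labelled female and 1163 CPM (1152 to 1174) in the library labelled male. A UMI was found in 3736 of 3737 cells labelled female and 3226 of 3228 cells labelled male. After thinning the shares were 96.3% (labelled female) and 95.8% (labelled male), against 33.3% (labelled female) and 3.12% (labelled male) of 9 and 32 T or NK-like cells. The podocyte level was higher than the next class by 2.2-fold (labelled female) and 3.06-fold (labelled male). Apart from Cldn5 and Cldn1, no claudin exceeded 0.938 CPM in these cells. Over the 7 podocyte-like clusters, Cldn5 ranged from 1036 to 1479.7 CPM (labelled female) and from 949 to 1303 CPM (labelled male). The lowest podocyte cluster was thus above the level of every other named class, taken whole, in its library. A small arterial endothelial-like sub-cluster, described below, was above the lowest podocyte cluster in both libraries. In the library labelled female it was above the highest as well. Across all genes, 0.797% led in the podocyte class.

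Outside podocytes and endothelium, the classes with the most Cldn5 also had the most Podxl. Smooth muscle or renin-like cells had Cldn5 at 559 CPM (labelled female) and 241 CPM (labelled male), and distal convoluted tubule-like cells at 498 CPM (labelled female) and 380.3 CPM (labelled male), with Podxl as above. Parietal epithelial-like cells had Cldn5 at 131 CPM (labelled female) and 107 CPM (labelled male) and Podxl at 403 CPM (labelled female) and 409.7 CPM (labelled male). In T or NK-like cells Cldn5 stood at 372 CPM (labelled female) and 38.7 CPM (labelled male) and Podxl at 1010 CPM (labelled female) and 134 CPM (labelled male). Both genes were low in proximal tubule-like cells, with Cldn5 at 31.7 CPM (labelled female) and 16.4 CPM (labelled male) and Podxl at 98.4 CPM (labelled female) and 61.8 CPM (labelled male).

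Cells with over 5 UMIs of 7 podocyte genes were then left out of the other classes, a setting chosen after seeing the data. Cldn5 was then at 7.04 CPM in 7 cells (labelled female) and 0 CPM in 15 cells (labelled male) in distal convoluted tubule-like cells, and at 29 CPM in 32 cells (labelled female) and 4.67 CPM in 58 cells (labelled male) in smooth muscle or renin-like cells. Parietal epithelial-like cells had 12.7 CPM in 44 cells (labelled female) and 8.75 CPM in 43 cells (labelled male). Endothelial cells kept most of it, with 182 CPM in 103 cells (labelled female) and 209 CPM in 84 cells (labelled male) for the glomerular class and 323 CPM in 55 cells (labelled female) and 253 CPM in 57 cells (labelled male) for the arterial class.

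Endothelial Cldn5 was uneven. The glomerular class had 171 CPM (95% interval 149 to 194) in the library labelled female and 217 CPM (183 to 255) in the library labelled male, and the arterial class 461 CPM (95% interval 411 to 515) in the library labelled female and 288 CPM (248 to 333) in the library labelled male. A UMI was found in 56 of 112 cells (50%) labelled female and 40 of 88 cells (45.5%) labelled male of the glomerular class, and in 23 of 64 cells (35.9%) labelled female and 26 of 67 cells (38.8%) labelled male of the arterial class. No other member had more than 4.8 CPM in either class.

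In the arterial class the gene was concentrated in 1 sub-cluster. It held 9 cells labelled female and 19 labelled male and was the one with Gja5, a connexin of arterial endothelium, at 236 CPM (labelled female) and 419 CPM (labelled male). Cldn5 stood there at 2544 CPM (labelled female) and 964 CPM (labelled male), in 7 of 9 cells and in 13 of 19 cells. Of the other 3 sub-clusters, the largest had Cldn5 at 139 CPM (labelled female) and 67.3 CPM (labelled male) and the smallest at 55.2 CPM (labelled female) and 0 CPM (labelled male). Cells led by the early response genes Atf3 and Egr1 had 8.73 CPM (labelled female) and 173 CPM (labelled male). The 3 carried Sox17, at a pooled level between 559 and 827 CPM, but Gja5 was at or below 27.9 CPM in each library. Plvap, a gene of fenestrated and venous endothelium, was higher in them, at a pooled 276 to 405 CPM, against 63.1 CPM in the Gja5 cells. The name arterial was given from 6 markers counted over the whole class, with Sox17 and Fbln5 among its leading genes. Its marker list also held Pecam1 and Cdh5, which the glomerular list shares. Most cells of the class were in the 3 sub-clusters with low Gja5.

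Glomerular endothelial-like cells had a smaller range. Those led by Dlk1 had Cldn5 at 240.2 CPM (labelled female) and 519.8 CPM (labelled male) and those led by Esm1 at 236 CPM (labelled female) and 249 CPM (labelled male). Cells led by Calca, Fbln2 and Jam2 were lowest, at 60.8 CPM (labelled female) and 22.8 CPM (labelled male). Ehd3, a gene of glomerular endothelium, was lower in the same cells, at 2633 CPM (labelled female) and 1640.4 CPM (labelled male), against 5042 CPM (labelled female) and 3691 CPM (labelled male) in the Esm1-led cells.

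**Figure D3:**
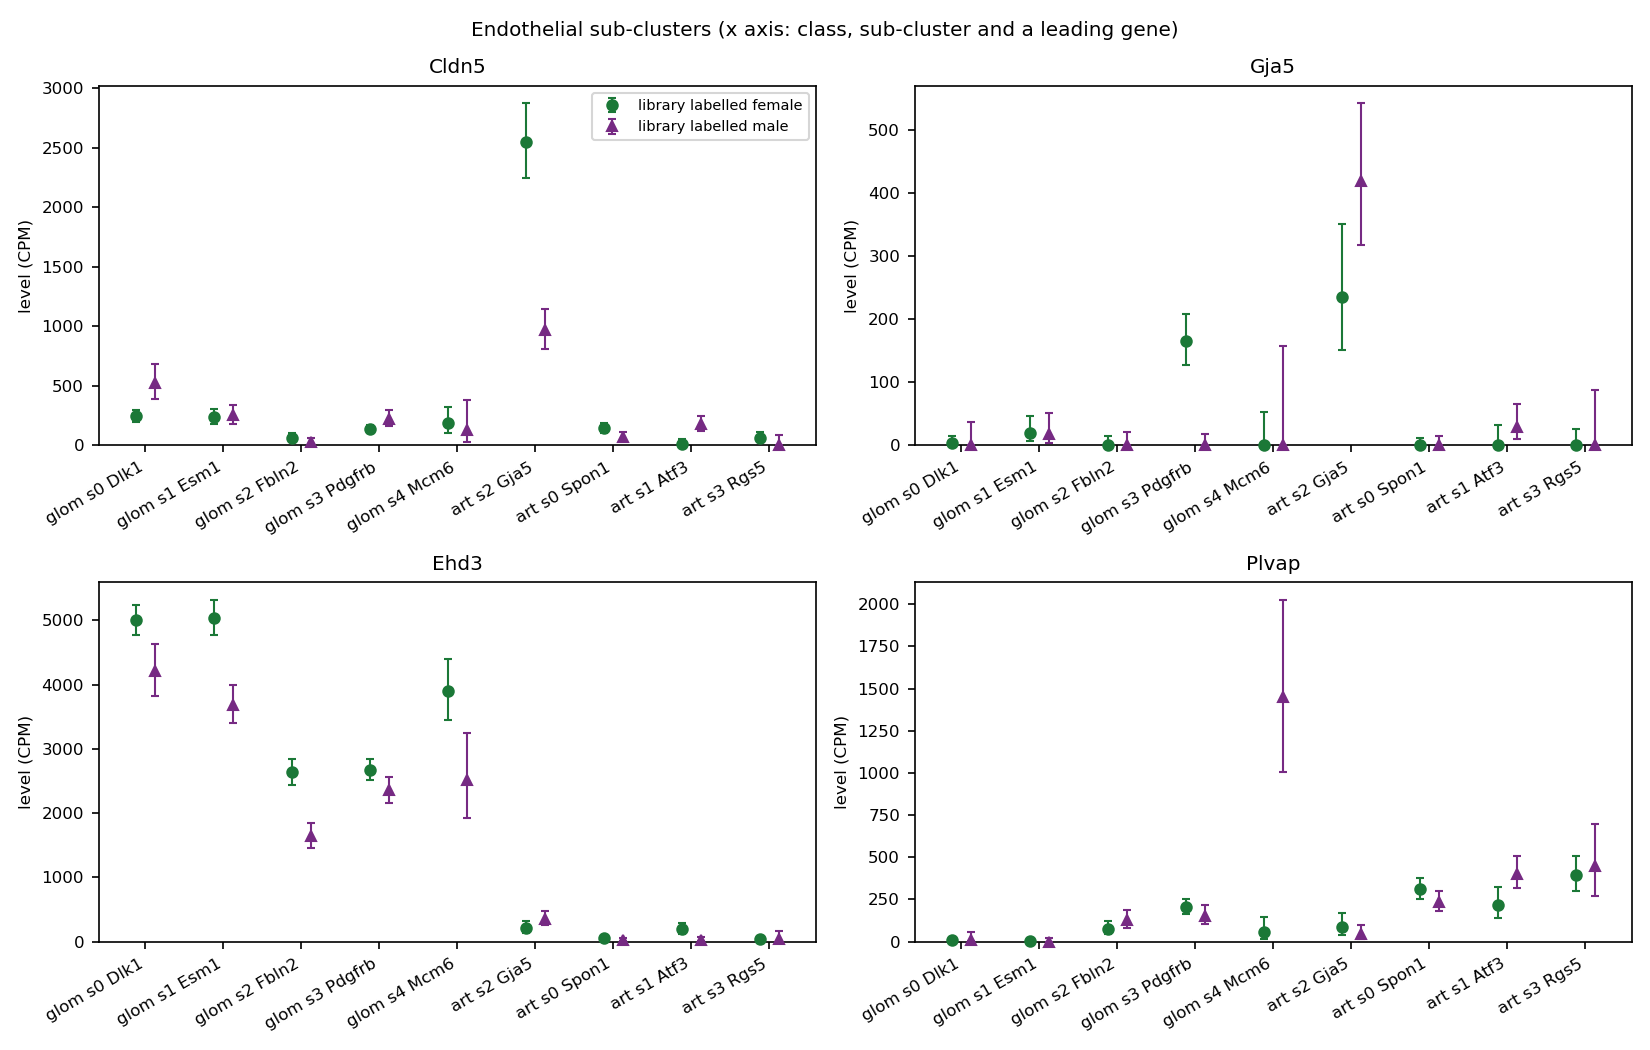
Levels in CPM (vertical axes, with exact Poisson 95% intervals) of Cldn5, Gja5, Ehd3 and Plvap in the sub-clusters of the glomerular (glom) and arterial (art) endothelial-like classes, for the library labelled female (circles) and the library labelled male (triangles). Cldn5 is highest in the Gja5 sub-cluster, at 2544 and 964 CPM.

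The thick ascending limb was led by 3 claudins. Cldn10, whose product passes sodium there, stood at 495 CPM (95% interval 446 to 548) in the library labelled female and 559.8 CPM (510.3 to 613) in the library labelled male. Cldn16 stood at 148 CPM (95% interval 121 to 178) in the library labelled female and 115 CPM (93 to 140.2) in the library labelled male. Cldn19, which joins with Cldn16 and is mutated with it in human magnesium wasting, stood at 162 CPM (95% interval 135 to 194) in the library labelled female and 132 CPM (108 to 159) in the library labelled male. A UMI was found in 23 of 37 cells (62.2%) labelled female and 28 of 47 cells (59.6%) labelled male for Cldn10, in 26 of 37 cells (70.3%) labelled female and 32 of 47 cells (68.1%) labelled male for Cldn16, and in 28 of 37 cells (75.7%) labelled female and 30 of 47 cells (63.8%) labelled male for Cldn19. After thinning the shares were 51.4% (labelled female) and 48.9% (labelled male) for Cldn10 and 18.9% (labelled female) and 34% (labelled male) for Cldn16. Across all genes, 0.837% led in this class.

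Cldn16 and Cldn19 were nearly restricted to it. The next class for Cldn16 was distal convoluted tubule-like with 6.04 CPM (2 UMIs, labelled female) and smooth muscle or renin-like with 1.38 CPM (1 UMI, labelled male). Both were under 3 counts, so no second class is read from them. For Cldn19 it was distal convoluted tubule-like with 18.1 CPM (6 UMIs, labelled female) and parietal epithelial-like with 15.7 CPM (24 UMIs, labelled male). Cldn16 had no UMI in parietal epithelial-like or proximal tubule-like cells of either library, where 3 counts would be 1.25 CPM (parietal, labelled female) and 9.52 CPM (proximal tubule, labelled female). Cldn10 was second in proximal tubule-like cells, at 232 CPM (labelled female) and 174 CPM (labelled male), a difference of 2.13-fold (labelled female) and 3.21-fold (labelled male). The Cldn10 lead was lost in 6 of 15 alternatives with the 2-fold rule. At resolution 0.5, where the thick limb class held 60 cells labelled female and 88 labelled male, the levels were 332 CPM against 232 CPM in proximal tubule-like cells (labelled female) and 289 CPM against 174 CPM (labelled male).

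Within the class, Cldn10 and Cldn16 were not evenly spread. In the mouse thick limb the 2 proteins have been reported in separate junctions. Sub-clustering without claudins gave 4 groups, and in 26 cells led by Foxq1 and Kcnj10 the Cldn10 level was 0 CPM (labelled female) and 43.1 CPM (labelled male), with a UMI in 0 of 10 and 1 of 16 cells. The same cells had Cldn16 at 249.7 CPM (labelled female) and 198 CPM (labelled male) and Cldn19 at 205 CPM (labelled female) and 165 CPM (labelled male). In 23 cells led by Wfdc15b, Lipg and Ptger3, Cldn10 was in every cell, at 1569 CPM (labelled female) and 1434 CPM (labelled male). Cldn16 stood there at 109 CPM (labelled female) and 93.9 CPM (labelled male) and Cldn19 at 310.4 CPM (labelled female) and 196 CPM (labelled male). Slc12a1 differed less, at 7550.2 CPM (labelled female) and 8797 CPM (labelled male) in the Wfdc15b-led cells and 7701 CPM (labelled female) and 9399 CPM (labelled male) in the Foxq1-led cells.

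These were the sub-clusters with the highest and the lowest Cldn10, so their ratio is a description. Over both libraries Cldn10 was 56.5-fold (95% interval 32.1 to 110.1) as high in the Wfdc15b-led as in the Foxq1-led cells, Cldn16 0.454-fold (95% interval 0.3 to 0.673), Cldn19 1.3-fold (95% interval 0.945 to 1.78) and Cldn3 4.76-fold (95% interval 2.23 to 11.3). The interval for Cldn19 held 1, and that of Cldn16 lay below it. With no Cldn10 UMI in the Foxq1-led cells labelled female, the ratio there was 94.3-fold against 3 counts, and the lower limit of its 95% interval was 75.9-fold.

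A group of 22 cells carried Nos1, Ptgs2 and Pappa2, genes of the macula densa, the salt-sensing plaque at the end of the thick limb. Nos1 stood there at 448 CPM (labelled female) and 599.9 CPM (labelled male). Cldn10 was intermediate, at 368 CPM (labelled female) and 212 CPM (labelled male), and Cldn19 was the lowest of the 4 groups in both libraries, at 79.3 CPM (labelled female) and 54.5 CPM (labelled male). Cldn7, a claudin of the distal nephron, was the highest of the 4, at 181 CPM (labelled female) and 188 CPM (labelled male). The last group, 13 cells led by podocyte genes such as Podxl and Synpo, held the podocyte claudin Cldn5 at 398 CPM (labelled female) and 309.5 CPM (labelled male).

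Many thick limb cells had over 20% mitochondrial UMIs. With the limit set at 50% the class grew to 102 cells labelled female and 166 labelled male. The sub-clusters at this limit, added after seeing the data, again divided by Cldn10. Of 7 sub-clusters, 3 had it high: 1281 CPM (labelled female) and 1417 CPM (labelled male) in 67 Ptger3- and Lipg-led cells, 1245 CPM (labelled female) and 1295 CPM (labelled male) in 27 Lipg-led cells, and 1483 CPM (labelled female) and 1405 CPM (labelled male) in 37 cells led by Vmn1r32, Aqp1 and Tmem86a. Fst was also among the leading genes of these 37 cells, and Aqp1 and Fst were on the marker list of the descending thin limb. A pair of Foxq1-led groups had it low, at 46.6 CPM (labelled female) and 150.2 CPM (labelled male) in 40 cells and 23.1 CPM (labelled female) and 90.4 CPM (labelled male) in 35 cells. Cldn16 ran the other way, at 297 CPM (labelled female) and 174 CPM (labelled male) in the 40 cells and 317 CPM (labelled female) and 192 CPM (labelled male) in the 35 cells.

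The Vmn1r32-led cells, which had Vmn1r32 at 608 CPM (labelled female) and 921 CPM (labelled male), showed the widest gap. They had Cldn16 at 25.9 CPM (labelled female) and 15.1 CPM (labelled male) and Cldn3 at 73.3 CPM (labelled female) and 99.8 CPM (labelled male), the lowest and the highest of the 7. Against the 35 Foxq1-led cells, the lowest for Cldn10, their Cldn10 was 22.8-fold (95% interval 17 to 31.3) as high over both libraries, Cldn16 0.0753-fold (95% interval 0.0403 to 0.13) and Cldn3 6.12-fold (95% interval 3.22 to 12.8). Cldn19 was 1.18-fold (95% interval 0.939 to 1.48) as high, with an interval that holds 1. Slc12a1 was at 5541 CPM (labelled female) and 5053 CPM (labelled male), against 7724 CPM (labelled female) and 9319 CPM (labelled male) in the 35 Foxq1-led cells. Whether all Vmn1r32-led cells belong to the thick ascending limb was not tested. Median mitochondrial shares of the sub-clusters ran from 14.6% to 31.7%, and their part in these levels was not tested.

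**Figure D4:**
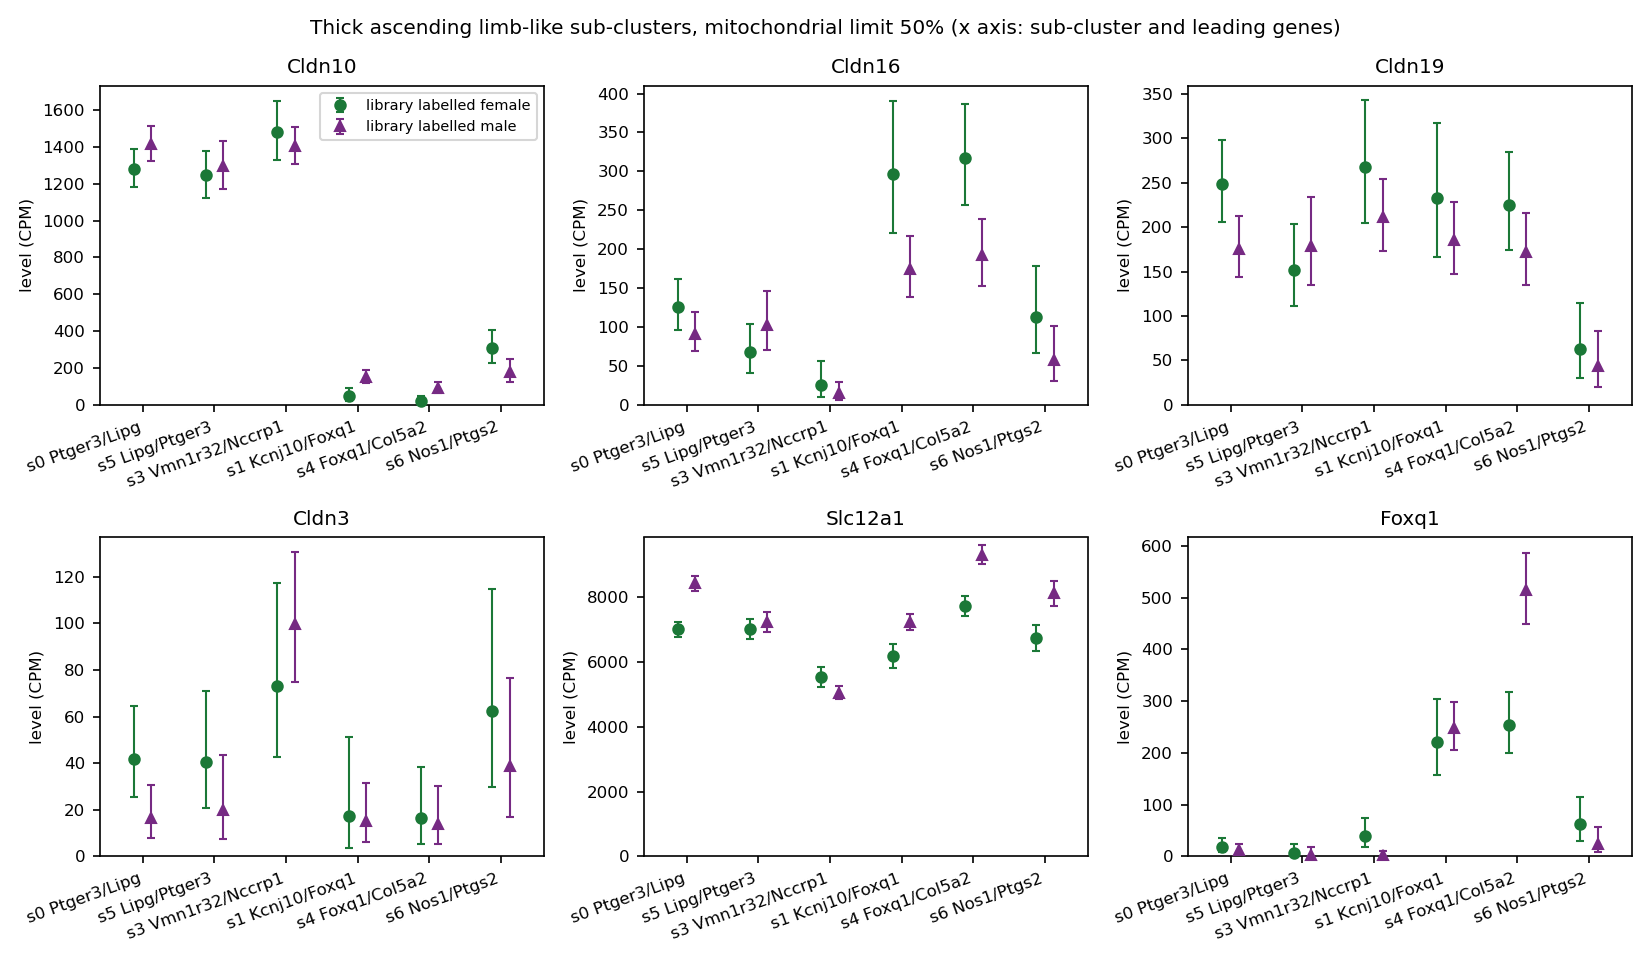
Levels in CPM (vertical axes, with exact Poisson 95% intervals) of Cldn10, Cldn16, Cldn19, Cldn3, Slc12a1 and Foxq1 in 6 of the 7 thick ascending limb-like sub-clusters at the mitochondrial limit of 50%, for the library labelled female (circles) and the library labelled male (triangles); the podocyte-mixed sub-cluster is left out. Cldn10 is above 1200 CPM in the 3 groups on the left, where Cldn16 is lower than in the Foxq1 groups, and Cldn19 differs less.

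Cell by cell, the shares had wide intervals. Of 84 thick ascending limb-like cells, 51 had a Cldn10 UMI, and 32 of these had Cldn16 (62.7%, exact interval 48.1 to 75.9%), against 26 of 33 cells without Cldn10 (78.8%, 61.1 to 91%). Cldn19 was in 46 of 58 cells with Cldn16 (79.3%) and 12 of 26 cells without it (46.2%). Cldn3 was in 27 of the 51 cells with Cldn10 (52.9%) and 9 of the 33 without (27.3%). After thinning, Cldn16 was found in 11 of 42 cells with Cldn10 and in 12 of 42 without, so the difference was not detectable at that depth.

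The proximal tubule carried Cldn2 and Cldn10 together. Cldn2 stood at 394 CPM (95% interval 327 to 469) in the library labelled female and 314 CPM (269 to 365) in the library labelled male, in 9 of 10 cells and 21 of 22 cells. Cldn10, in 8 of 10 cells and 19 of 22 cells, stood at 232 CPM (labelled female) and 174 CPM (labelled male). Cldn7 and Cldn3 were low, at 19 CPM (labelled female) and 36.3 CPM (labelled male) and at 0 CPM (labelled female) and 10.9 CPM (labelled male). The Cldn2 level was higher than in parietal epithelial-like cells by 2.18-fold (labelled female) and 2.91-fold (labelled male), while 3.52% of all genes led in the proximal tubule class.

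With the mitochondrial limit at 50% the class held 32 cells labelled female and 63 labelled male, and the difference in Cldn2 narrowed to 273 CPM against 184 CPM in parietal cells (labelled female) and 273 CPM against 120.2 CPM (labelled male). The lead was lost in 4 of 15 alternatives. At this limit all 4 proximal sub-clusters had Cldn2, at 256 to 374 CPM over both libraries, and Cldn10, at 119 to 229 CPM. Slc34a1, the phosphate transporter of the early proximal tubule, varied more, from 393 to 1945 CPM.

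Both the thick limb and the distal convoluted tubule carried Cldn7 and Cldn8. Cldn7 stood at 117 CPM (labelled female) and 124 CPM (labelled male) in thick ascending limb-like cells and at 90.6 CPM (labelled female) and 92.2 CPM (labelled male) in distal convoluted tubule-like cells, with intervals that overlapped in both libraries. Cldn8, a partner of Cldn4 in the collecting duct, stood at 116 CPM (labelled female) and 127 CPM (labelled male) and at 103 CPM (labelled female) and 162 CPM (labelled male) in the same classes. Cldn3, a barrier claudin, stood at 42.6 CPM (labelled female) and 40.7 CPM (labelled male) and 42.3 CPM (labelled female) and 13.2 CPM (labelled male). Parietal epithelial-like cells had 19.2 CPM (labelled female) and 19.7 CPM (labelled male), above the distal convoluted tubule-like level in the library labelled male. At the mitochondrial limit of 50% the 2 distal classes differed in Cldn8, which was higher in distal convoluted tubule-like cells, at 143 CPM (95% interval 109 to 184) in the library labelled female and 189 CPM (165 to 214) in the library labelled male, than in thick ascending limb-like cells, at 75.2 CPM (95% interval 63.6 to 88.3) in the library labelled female and 96 CPM (85.3 to 108) in the library labelled male.

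The distal convoluted tubule-like class divided in 2 groups. The 26 cells led by Pvalb and Sfrp1 had Slc12a3 at 6988 CPM (labelled female) and 8869.8 CPM (labelled male). Cldn8 stood there at 194 CPM (labelled female) and 238 CPM (labelled male) and Cldn7 at 152 CPM (labelled female) and 141 CPM (labelled male). The 27 others were led by Cdkn1c, Clic3 and Thsd7a, as the parietal cells with podocyte genes were. Slc12a1, the transporter of the thick limb, was also among their leading genes. They had Cldn8 at 12 CPM (labelled female) and 73.2 CPM (labelled male) and Cldn5 at 967 CPM (labelled female) and 779.7 CPM (labelled male). Cldn4 in the whole class came to 72.4 CPM (labelled female) and 11.7 CPM (labelled male), but all 24 UMIs labelled female were in 1 of 20 cells, and the 8 UMIs labelled male in 4 of 33 cells.

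Connecting tubule, principal and intercalated cells were named only at the mitochondrial limit of 50%. Cells led by S100g, Calb1 and Aqp2, 5 labelled female and 18 labelled male, had Cldn8 at 219 CPM (labelled female) and 328 CPM (labelled male), Cldn7 at 144 CPM (labelled female) and 156 CPM (labelled male) and Cldn4 at 194 CPM (labelled female) and 36.5 CPM (labelled male). They were 1 of 3 sub-clusters of a class that also held cells led by mesangial and by endothelial genes, in which Cldn8 had no UMI. Intercalated-like cells, which move acid and base, numbered 12 and 22. Of these, 7 cells labelled female and 4 labelled male were led by Slc4a1, the anion exchanger of acid-secreting cells, and had Cldn8 at 435 CPM (labelled female) and 691 CPM (labelled male), Cldn7 at 235 CPM (labelled female) and 274 CPM (labelled male) and Cldn4 at 153 CPM (labelled female) and 43.9 CPM (labelled male). The 2 sub-clusters with Slc26a4, the exchanger of base-secreting cells, had Cldn8 at 319.8 and 294 CPM over both libraries. The first was also led by podocyte genes, and the second by Calb1, S100g and Aqp2, genes of connecting tubule and principal cells. Over the whole class Cldn8 was the highest claudin in both libraries, and Cldn16 and Cldn19 had no UMI there.

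Claudin levels were compared between the libraries within each class, as labelled female over labelled male, with a call past 1.5-fold at 20 CPM or more. Of 110 pairs of claudin and class, 30 reached that level and 15 were called, 10 higher and 5 lower in the library labelled female. The share of all genes called the same way was 1.55% in podocyte-like, 8.0% in parietal epithelial-like, 9.1% in mesangial-like, 19.1% in glomerular endothelial-like, 20.6% in thick ascending limb-like, 21.3% in arterial endothelial-like, 27.5% in smooth muscle or renin-like, 28.8% in distal convoluted tubule-like, 39.5% in proximal tubule-like, 56.5% in T or NK-like and 57.0% in macrophage or monocyte-like cells, so that in small classes a call is common. The claudins that led were not called in their own classes. Cldn5 in podocyte-like cells had a ratio of 1.06 (95% interval 1.04 to 1.07) and Cldn1 in parietal epithelial-like cells of 1.27 (95% interval 1.1 to 1.47). In thick ascending limb-like cells the ratio was 0.884 (95% interval 0.769 to 1.01) for Cldn10 and 1.29 (95% interval 0.969 to 1.71) for Cldn16.

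In parietal epithelial-like cells Cldn2 was higher in the library labelled female, with a ratio of 1.67 (95% interval 1.39 to 2.01), a call lost in 5 of 16 alternatives. Cldn8 and Cldn7 were lower, with ratios of 0.0942 (95% interval 0.0483 to 0.17) and 0.539 (95% interval 0.361 to 0.802), in the class in which the library labelled male held 3 of the 4 cells with principal cell markers. The Cldn8 call was lost in 5 of 16 alternatives, and the Cldn7 ratio fell below the fold in 6 and changed sign in 4. Cldn5 had ratios of 2.31 (95% interval 1.95 to 2.76) in smooth muscle or renin-like and 2.57 (95% interval 1.84 to 3.65) in thick ascending limb-like cells, calls lost in 4 of 16 and 8 of 15 alternatives. Podxl stood in these at 1743 CPM (labelled female) and 799 CPM (labelled male) and at 670.2 CPM (labelled female) and 438 CPM (labelled male), and its part in the ratios was not tested. Cldn5 was also called in arterial endothelial-like cells, with a ratio of 1.6 (95% interval 1.33 to 1.93), and this call was lost in 6 of 16 alternatives.

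The genes most like each claudin across the 11 named classes in both libraries (22 points, which share libraries and depth) were named by Pearson's r of log2(CPM + 10), as a description. Cldn1 went with Stc2 (r = 0.906), Masp1 (r = 0.9) and Plppr4 (r = 0.897), all highest in parietal epithelial-like cells. Cldn5 went with Podxl (r = 0.979), Clic5 (r = 0.968) and Sema3g (r = 0.948), of which Podxl is described above. Cldn2 went with Cbs (r = 0.991), Spink1 (r = 0.989) and Bdh2 (r = 0.983). For the thick limb claudins, Cldn10 went with Slc5a1 (r = 0.981), Car4 (r = 0.979) and Mfsd4b3 (r = 0.977), Cldn16 with Car15 (r = 0.995), Ptger3 (r = 0.994) and Dusp9 (r = 0.988), and Cldn19 with Ephb2 (r = 0.983), Lipg (r = 0.975) and Car15 (r = 0.965). Ptger3 encodes a prostaglandin receptor, and Slc5a1 a glucose transporter. Cldn3, Cldn7 and Cldn8 were each most like other genes: Cldn3 with C1qtnf4 (r = 0.966), Dsg2 (r = 0.959) and Tmem30b (r = 0.938), Cldn7 with Klhdc7a (r = 0.992), Paqr5 (r = 0.986) and Wfdc2 (r = 0.982), and Cldn8 with Mal2 (r = 0.993), Slc35g1 (r = 0.979) and Ckmt1 (r = 0.961).

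Partners of the claudins were taken from 5 lists. Of 16 other claudin and claudin-like genes, 3 reached 20 CPM in both libraries and 0 led in a class. Among these was Cldn15, singled out after its values were seen, which stood at 175 CPM (labelled female) and 171 CPM (labelled male) in glomerular and 219 CPM (labelled female) and 182 CPM (labelled male) in arterial endothelial-like cells. Among 12 other membrane proteins of the junction 11 were tested and 2 led: Jam2, an adhesion molecule of endothelium, in arterial endothelial-like cells at 335 CPM (labelled female) and 254 CPM (labelled male), against 40.6 CPM (labelled female) and 61.6 CPM (labelled male) in glomerular ones, and Ildr2 in podocyte-like cells at 846 CPM (labelled female) and 846 CPM (labelled male). Of 10 scaffold genes 9 were tested and Magi2 led, in podocyte-like cells, at 1390 CPM (labelled female) and 1464 CPM (labelled male). Of 5 polarity genes Mpp5 led in podocyte-like cells, at 914 CPM (labelled female) and 939.7 CPM (labelled male). Of 5 cadherins, Cdh6 and Cdh2 led in parietal epithelial-like cells, at 270.5 CPM (labelled female) and 215 CPM (labelled male) and at 86.5 CPM (labelled female) and 91.8 CPM (labelled male); Cdh6 was 1 of the parietal markers, so its lead is no finding. The 6 leads in these lists are read beside the 16.2% of all genes that led in a class, and nothing particular to the lists is drawn from them.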

How the data were processed

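Single-cell RNA of 2 mice was read from the raw counts deposited by the authors: integer UMIs of each gene in each barcode, not normalized, per the file headers. The submitters' processing notes name Cell Ranger 6.1.2, STAR 2.7.5a and mm10 without their roles; cell calling, annotation and strand: not given in the sources used here. Groups follow the sample titles. Barcodes with over 20% mitochondrial UMIs (283 labelled female, 504 labelled male) or under 500 genes (112 labelled female, 145 labelled male) were dropped. Scrublet, run in scanpy 1.11.5, called 3 and 1 cells and so did not work, and doublets remain.

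The 9351 kept cells were clustered with scikit-learn 1.9.0 and leidenalg 0.10.2 (30 components, 2000 variable genes, 20 neighbours, resolution 1.0, seed 1), without claudin, mitochondrial, reporter, Xist and Y-linked genes. To be named, a cluster needed 3 markers of a list, each at 50 CPM or more and in over 20% of cells. Each also had to be over 2-fold above the lower quartile of its levels over the clusters. Of the lists that passed, the one with the highest mean level relative to each marker's top cluster gave the name. The name was withheld where another list had more markers among the 10 leading genes of the cluster. It was also withheld where cell cycle genes, but no marker of the list, were among them. Sub-clusters used 1000 variable genes, 10 components and 15 neighbours. UMIs were summed per library and class and given as CPM, with Poisson, Clopper-Pearson and conditional binomial 95% intervals (scipy 1.17.1), which cover counting error only. The precision followed the depth: 1 UMI was worth 0.0213 CPM (labelled female) and 0.0278 CPM (labelled male) in podocyte-like cells, but 3.17 and 1.82 CPM in proximal tubule-like cells. For a count of 0 the limit is 3 counts. Log2 ratios carried a prior of 10 CPM, and printed ratios none. With 1 library per group no test was made. The intervals and the lead rule were tested on simulated data. The members, marker and gene lists were chosen with earlier results of these data known. All 10 members, list genes that led in a class, and the 3 genes most like each claudin are named. The alternatives were 2 other mitochondrial limits, gene minima and resolutions, claudins allowed in the clustering, cells typed one by one, removal of the 5% highest Scrublet scores, thinning, means over cells, another scaling, other priors, a 4-fold lead and a 2-UMI detection limit. Sub-clusters, the podocyte UMI limit, and the removal of principal-marker cells and of the mixed thick limb group were chosen after seeing the data.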

Additional observations from a re-analysis of the deposited data

How the results depend on the processing

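The lead of Cldn5 in podocyte-like cells was kept in all 15 alternatives run with the 2-fold rule, and that of Cldn1 in 14. Cldn1 lost it when cells were typed one by one, where 9 proximal tubule-like cells labelled female had 139.8 CPM. Cldn16 and Cldn19 lost theirs at the mitochondrial limit of 10%, which left no tubule class named. At that limit 3 claudins led in place of 6, 7 levels reached 20 CPM in place of 23, 5 pairs of class and claudin had a UMI in 20% or more of cells in place of 18, 4 library calls were made in place of 15, and 11 partner genes led in place of 6. Cldn2 kept its lead in 11 and Cldn10 in 9 of the 15. A 4-fold rule left only the leads of Cldn16 and Cldn19 (2 of 6). Library calls numbered 8 at resolution 0.5, 8 with claudins allowed in the clustering, 9 at a minimum of 200 genes, 9 without cells over the podocyte limit (chosen after seeing the data) and 6 with a prior of 50 CPM. The share of Cldn10 cells with Cldn16, 62.7%, was 35.6% at 2 UMIs per cell and 26.2% after thinning. The cause of these shifts was not tested.

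Of the called single ratios under the alternatives, 143 stayed past the threshold, 53 dropped below it and 12 changed sign (log2, labelled female over labelled male). At the limit of 50%, Cldn1 in proximal tubule-like cells came to -0.16, Cldn3 and Cldn4 in distal convoluted tubule-like cells to -0.29 and -0.48. Cldn5 in T or NK-like cells came to -0.50 with cells typed one by one and -0.45 under the podocyte limit, and after thinning to 0.18 in macrophage or monocyte-like and -1.33 in proximal tubule-like cells. Cldn7 in parietal epithelial-like cells came to 0.33 at resolution 2.0, 0.29 with claudins allowed, 0.29 at 1000 genes and 0.32 at 200 genes, and to 0.17 in proximal tubule-like cells as a mean over cells. No paired analysis was possible because each group has 1 library and no test was made. No replicate could be left out for the same reason. Depth limits the tubule and immune classes most, where few cells carry each level.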

Other observations

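The 4 clusters without a name also carried claudins. The first, 98 cells labelled female and 83 labelled male led by Cst12, Dkk3 and Igfbp6, combined the podocyte and the parietal claudin: Cldn5 stood at 1004 CPM (labelled female) and 921 CPM (labelled male) and Cldn1 at 85.8 CPM (labelled female) and 88 CPM (labelled male), above its level in podocyte-like cells. Cldn1 was found in 52 of 98 cells (53.1%) labelled female and 43 of 83 cells (51.8%) labelled male, and Cldn2 at 0.655 CPM (labelled female) and 0 CPM (labelled male).

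A second unnamed cluster, 364 cells labelled female and 459 labelled male with haemoglobin genes among its leading genes, had Cldn5 at 1346 CPM (labelled female) and 1232 CPM (labelled male) and Cldn1 at 9.46 CPM (labelled female) and 12.6 CPM (labelled male). Another, 19 and 17 cells with podocyte and endothelial genes together, had Cldn5 at 795 CPM (labelled female) and 998 CPM (labelled male). The last, 24 and 11 cells led by cell cycle genes, had Cldn5 at 21.1 CPM (labelled female) and 90 CPM (labelled male).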
